A study of Mus musculus with 4 samples.

Results

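The Hox genes encode homeodomain transcription factors and lie in 4 clusters, and chromatin accessibility at all 39 of them, of 21887 protein-coding genes, was read from ATAC-seq peak lists. Members were the protein-coding genes of the RefSeq table for GRCm38.p6 (the assembly of mm10) with the symbols Hoxa, Hoxb, Hoxc or Hoxd followed by a number. A gene was counted as having a peak when a peak shared at least 1 bp with the gene body extended by 2 kb on both sides. In ATAC-seq the Tn5 transposase inserts adapters into open DNA, so a called peak marks a stretch that was cut more often than its surroundings.

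The cells were Gr1+CD11b+ myeloid-derived suppressor cells, which are immature myeloid cells that dampen T cell responses, FACS-sorted from ascitic fluid 14 days after injection of EL4 tumour cells, a mouse T cell lymphoma line. They came from WT mice (2 libraries) and from mice lacking Sphk2, a sphingosine kinase gene (Sphk2 KO, 2 libraries). The labels give neither the strain and age of the animals nor the kind of Sphk2 allele, and both groups carried the same tumour. Each library was made from 20000 cells with 40% of the recommended Tn5, and the labels call the libraries biological replicates without tying them to animals, so the p-values below measure only the spread between these libraries. Where 4 values stand in a row, the WT pair comes first and the Sphk2 KO pair second, each with replicate 1 before replicate 2. At Sphk2 itself (chr7:45709463-45718002) all 4 libraries had a peak across the upper end of the gene, with −log10 q of 61.6, 73.5, 28.0 and 70.5, and a further peak inside the gene was called in both Sphk2 KO libraries and neither WT library. The labels do not give which part of the gene was deleted, so these peaks do not check the genotype.

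Hox proteins give cells their position along the body axis, and within a cluster the genes are expressed in the order in which they lie on the chromosome. In blood, genes of the Hoxa and Hoxb clusters are active in stem and progenitor cells and are shut down as granulocytes and monocytes mature. Trithorax-type MLL complexes keep Hox genes active, Polycomb complexes silence them, and Hox proteins bind DNA together with cofactors of the TALE homeodomain group such as Meis1 and Pbx proteins.

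Most Hox genes had no peak in any library. Of the 39 genes, 29 (74.4%) had none, and 10 had a peak in at least 1 library, which is 25.6%, whereas 62.5% of all protein-coding genes had one. Per library, 7, 8, 2 and 5 Hox genes had a peak, or 17.9%, 20.5%, 5.13% and 12.8%. Over all protein-coding genes the shares were 58.0%, 59.0%, 50.5% and 56.4%. Hoxb3 was the Hox gene with a peak in all 4 libraries (49.4% of all genes had this), but it was reached by different peaks in different libraries. Hox genes are short, so the comparison was repeated for genes of at most 10 kb, where 6 of 33 Hox genes (18.2%) had a peak in any library against 43.5% of all such genes.

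**Figure D1:**
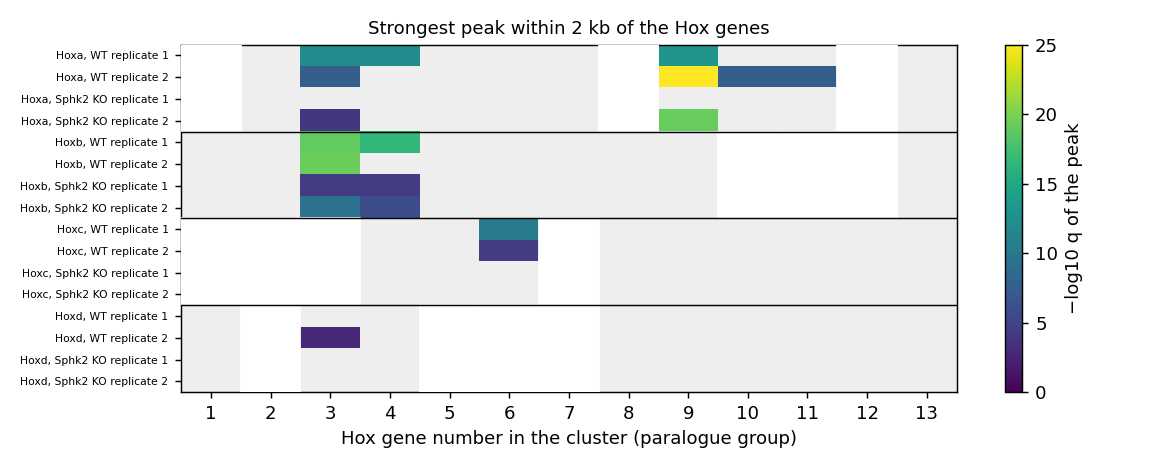
The −log10 q of the strongest peak within 2 kb of the Hox genes (colour scale), with the paralogue number on the horizontal axis and the 4 libraries of each cluster as rows. Grey cells are genes without a peak and white cells are gene numbers that are not shown or that the cluster does not have; coloured cells are mostly in Hoxa and at Hoxb3 and Hoxb4.

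The peaks lay mainly in the Hoxa cluster. Peaks of the 4 libraries merged into 13 regions at Hox genes, 9 of them in Hoxa on chromosome 6 (11 genes), 2 in Hoxb on chromosome 11 (10 genes), 1 in Hoxc on chromosome 15 (9 genes) and 1 in Hoxd on chromosome 2 (9 genes). The genes with a peak in any library numbered 6 in Hoxa, 2 in Hoxb, 1 in Hoxc and 1 in Hoxd. No merged region inside the 4 clusters lay outside these gene windows. Of the 13 regions, 5 were called in 3 libraries, 1 in 2 libraries, 7 in 1 library and 0 in all 4. Of the 45299 regions of the whole genome 37.5% were called in all 4. In Hoxa 6 of the 9 regions were called in 1 library only, whereas the 2 Hoxb regions were each called in 3.

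None of the 13 regions covered the start of a Hox gene model, although 7 came within 500 bp of one. The start was taken as the outer end of each gene model, so further starts inside a model were not part of this count. RefSeq promoter windows, which run from 250 bases before to 50 after a gene start, were listed for 22 of the 39 genes (24 windows). The windows cover the clusters unevenly, with 9 of 11 Hoxa, 3 of 10 Hoxb, 1 of 9 Hoxc and 9 of 9 Hoxd genes. Hoxa4, Hoxb3 and Hoxc6, which had peaks, were among the genes without a window, so the shares below describe the listed windows only. One of the 24, that of Hoxa3, overlapped a peak, and it did so in WT replicate 2 alone. Among all 21263 windows of protein-coding genes 48.3% overlapped a peak in any library. The Hox windows resembled the others in base composition, with a median of 14.5 CpG dinucleotides against 13 and a median G+C content of 57.7% against 56.3%. Windows with an observed to expected CpG ratio of at least 0.6 and at least 50% G+C were called CpG-rich, a class that held 11 of the 24 Hox windows (45.8%) and 45.1% of all windows. Of all CpG-rich windows 80.3% overlapped a peak in any library and 70.2% did so in all 4, against 1 and 0 of the 11 Hox windows.

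The promoter windows that lay closest to peaks are shown with those of Hoxa13 and Hoxb1, genes of the same clusters without a peak, from RefSeq (GRCm38.p6, each 5′ to 3′ on the strand of the gene). In the Hoxa3 window at chr6:52213018-52213317 (minus strand) capitals mark the 223 bases inside the peak of WT replicate 2.

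Hoxa3: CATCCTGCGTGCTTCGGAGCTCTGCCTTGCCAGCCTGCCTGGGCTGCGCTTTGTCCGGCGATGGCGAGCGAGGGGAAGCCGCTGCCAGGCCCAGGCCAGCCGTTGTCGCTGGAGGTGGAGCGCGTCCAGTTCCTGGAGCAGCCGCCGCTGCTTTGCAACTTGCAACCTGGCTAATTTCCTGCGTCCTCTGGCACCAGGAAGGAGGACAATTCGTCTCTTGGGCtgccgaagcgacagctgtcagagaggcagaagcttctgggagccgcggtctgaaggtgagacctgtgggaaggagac

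In the next sequences capitals mark CpG dinucleotides. The Hoxb4 window at chr11:96318017-96318316 (plus strand, 14 CpG) ended 11 bp before a region called in 3 libraries.

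Hoxb4: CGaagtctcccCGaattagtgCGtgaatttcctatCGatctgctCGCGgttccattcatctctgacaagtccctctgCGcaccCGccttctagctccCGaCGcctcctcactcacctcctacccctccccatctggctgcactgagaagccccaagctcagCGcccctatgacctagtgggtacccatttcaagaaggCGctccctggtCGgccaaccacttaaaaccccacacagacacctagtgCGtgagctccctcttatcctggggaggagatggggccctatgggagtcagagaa

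The Hoxa11 window at chr6:52245761-52246060 (minus strand, 15 CpG) lay between a pair of weak peaks of WT replicate 2, the nearer of them 24 bp away.

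Hoxa11: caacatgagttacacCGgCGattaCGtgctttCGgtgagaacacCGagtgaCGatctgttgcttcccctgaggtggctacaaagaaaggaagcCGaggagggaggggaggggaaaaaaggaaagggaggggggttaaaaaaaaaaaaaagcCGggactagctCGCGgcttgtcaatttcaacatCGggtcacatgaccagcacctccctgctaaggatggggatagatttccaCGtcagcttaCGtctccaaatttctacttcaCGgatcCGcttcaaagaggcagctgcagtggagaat

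The Hoxa13 window at chr6:52260831-52261130 (minus strand) had 45 CpG, the most of the 24 Hox windows, and the nearest peak was 14460 bp away.

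Hoxa13: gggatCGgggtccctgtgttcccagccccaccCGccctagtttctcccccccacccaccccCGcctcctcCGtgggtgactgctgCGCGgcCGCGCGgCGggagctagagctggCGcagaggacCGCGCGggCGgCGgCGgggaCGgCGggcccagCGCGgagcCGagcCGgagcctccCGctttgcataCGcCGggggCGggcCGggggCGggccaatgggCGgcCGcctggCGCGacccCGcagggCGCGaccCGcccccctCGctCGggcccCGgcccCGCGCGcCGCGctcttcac

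The Hoxb1 window at chr11:96365508-96365807 (plus strand) had 10 CpG, and the nearest peak was 46240 bp away.

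Hoxb1: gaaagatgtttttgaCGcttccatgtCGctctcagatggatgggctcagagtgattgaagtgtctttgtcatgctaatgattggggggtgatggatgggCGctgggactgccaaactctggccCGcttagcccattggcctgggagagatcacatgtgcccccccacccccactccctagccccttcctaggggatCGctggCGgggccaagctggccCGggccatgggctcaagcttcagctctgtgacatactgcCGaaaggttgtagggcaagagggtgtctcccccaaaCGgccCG

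A set of 7 short motifs was searched on both strands of the 24 Hox windows. CCAAT, the core bound by the factor NF-Y, was found in 15 of them (62.5%) against 38.2% of all windows. GAGGAA, a core of ETS factors such as the myeloid regulator PU.1, was found in 4 (16.7%) against 27.4%, and TGTGGT, the core of Runx factors, in 1 (4.17%) against 14.97%. GGGCGG was found in 10 (41.7%, all windows 46.2%), TATAAA in 4 (16.7%, all windows 12.6%), TGACGT in 2 (8.33%, all windows 8.49%) and TGATTTA, a core of the kind Hox and TALE factors share, in 0 (all windows 2.61%). The Hoxa3 and Hoxb4 windows held none of the searched motifs, the Hoxa11 window held TGACGT, the Hoxa13 window GGGCGG and CCAAT, and the Hoxb1 window CCAAT. A match describes letters only.

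The strongest Hox region lay between Hoxa9 and Hoxa7. Hoxa9 encodes a factor of progenitor self-renewal whose overexpression with Meis1 is leukaemogenic. The region at 52221389 to 52222022 on chromosome 6 was 1075 bp past the lower-coordinate end of Hoxa9, which is its 3′ end, and overlapped no annotated gene. Its −log10 q, as the authors' caller gave it, was 13.1 (WT replicate 1), 25.0 (WT replicate 2) and 19.2 (Sphk2 KO replicate 2), with fold enrichments of 6.07, 7.56 and 6.98 and widths of 295, 521 and 485 bp. By −log10 q it ranked 15033 of 31507, 11630 of 31843 and 13675 of 27446 peaks. The 3 summits fell within 48 bp of each other, and Sphk2 KO replicate 1 had no peak there. These fold enrichments and q-values, here and below, are each peak's own as the authors' caller gave them and rank peaks within a list only.

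Hoxa3, a gene that acts in the head and neck, was reached by a region called in the same 3 libraries. The Hoxa3 gene model spans 44009 bp and encloses Hoxa4, Hoxa5 and Hoxa6. Its region at 52211663 to 52212160, 907 bp inside the start and overlapping the lncRNA gene Hoxaas3, reached −log10 q 4.94 and 7.56 in WT, with 3.97 for Sphk2 KO replicate 2. Widths were 498, 387 and 318 bp and fold enrichments 3.98, 4.39 and 3.58, and the summits fell within 15 bp. The peak over the promoter window printed above, at 52213095 to 52213504, was called in WT replicate 2 alone (−log10 q 5.32, fold enrichment 3.66). At Hoxa4 a region 181 bp before the gene, 52191884 to 52192184, also inside the long Hoxa3 model, was called in WT replicate 1 alone with −log10 q 12.05 and fold enrichment 5.97. No other single-library region at Hox genes reached that value.

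The posterior genes Hoxa10 and Hoxa11 had peaks in WT replicate 2 alone. Hoxa10, which takes part in myeloid differentiation, had a region at 52240417 to 52240626 inside its body, 228 bp from the start (−log10 q 7.55, fold enrichment 4.52, 210 bp wide), and the same region lay within 2 kb of Hoxa11. The regions on either side of the Hoxa11 start, at 52245484 to 52245698 and 52246084 to 52246371, had −log10 q of 2.101 and 2.23, and both overlapped the antisense lncRNA gene Hoxa11os. Hoxa2, Hoxa5, Hoxa6, Hoxa7 and Hoxa13 had no peak within 2 kb in any library.

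**Figure D2:**
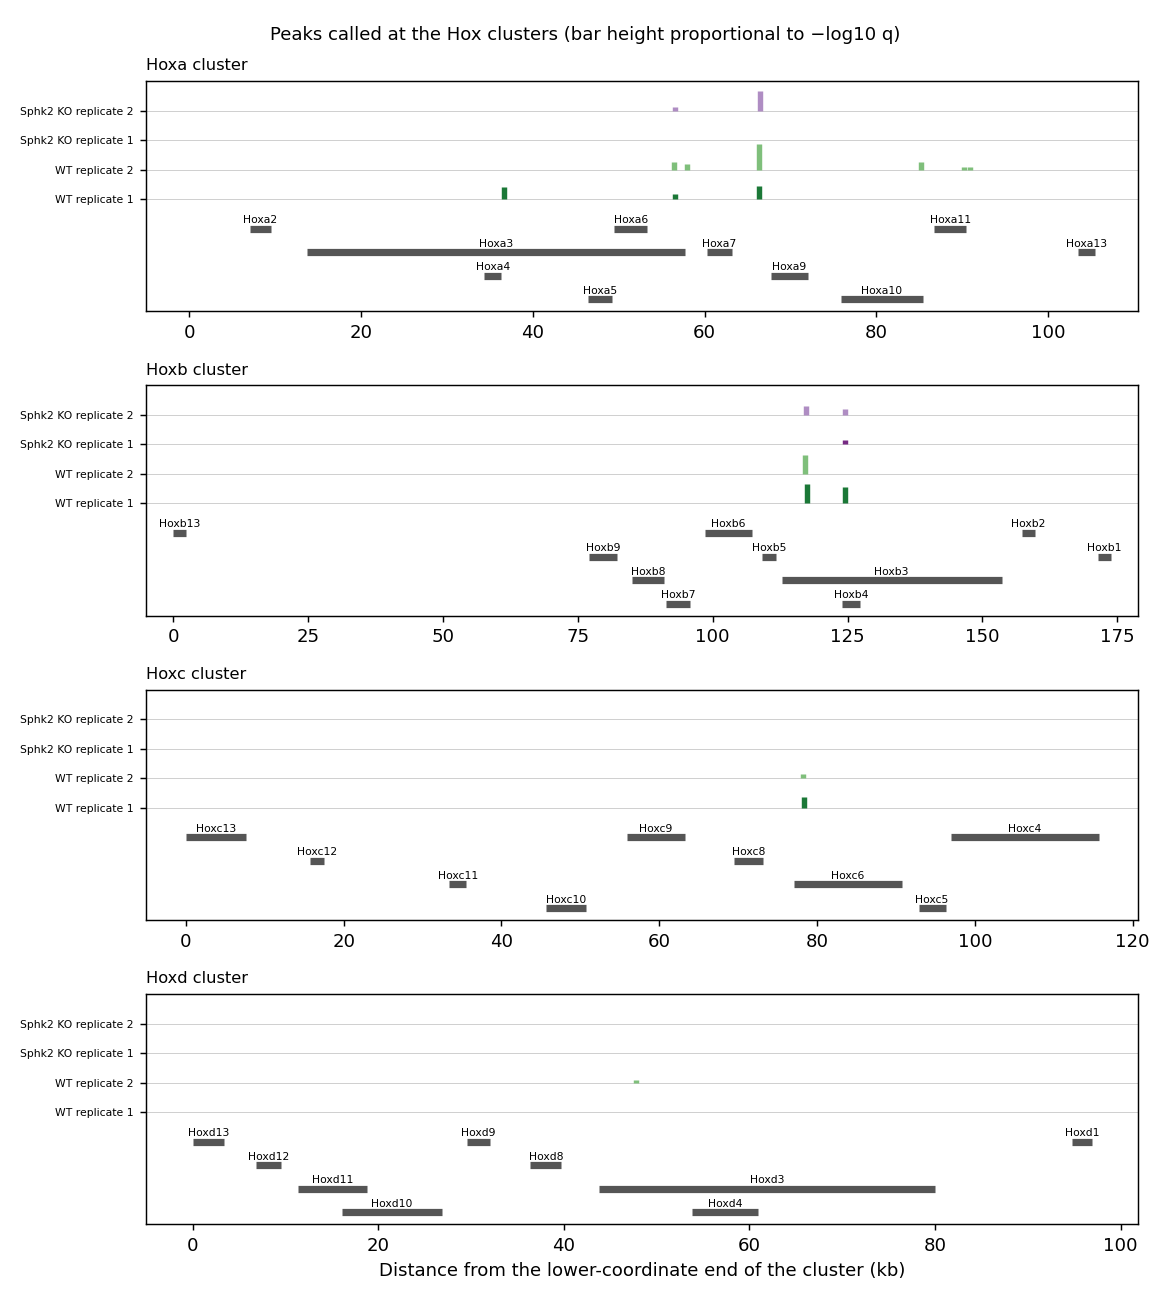
Positions of the peaks described in the text along the 4 Hox clusters, as distance from the lower-coordinate end of each cluster (kb), with gene bodies as grey bars and 1 line per library. Bar heights are proportional to −log10 q, to a maximum of 25.0 at the Hoxa9 region in WT replicate 2, and Sphk2 KO replicate 1 has a bar at Hoxb4 alone.

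In the Hoxb cluster peaks were called in the Hoxb3 and Hoxb4 stretch alone. Hoxb4 encodes a factor that expands haematopoietic stem cells when overexpressed. The Hoxb4 region at 96318327 to 96319268 on chromosome 11 lay inside the gene, beginning 60 bp after its start, and also inside the 40830 bp model of Hoxb3. Peaks there reached −log10 q 16.6 (WT replicate 1), 4.39 (Sphk2 KO replicate 1) and 5.91 (Sphk2 KO replicate 2), with widths of 942, 370 and 385 bp and fold enrichments of 7.07, 4.02 and 3.91. WT replicate 2 had no peak there, although it had the most Hox peaks of the 4 libraries (the libraries had 8, 10, 1 and 5). This was the one Hox peak of Sphk2 KO replicate 1, at rank 16957 of its 20759 peaks.

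The Hoxb3 region at 96310890 to 96312292, 3789 bp inside the gene, was the widest Hox region with 1403 bp. Peaks there reached −log10 q 19.0 and 19.4 in the WT libraries against 9.32 for Sphk2 KO replicate 2, with widths of 1036, 1231 and 716 bp, and fold enrichments of 7.13, 6.38 and 4.73. The summits fell within 58 bp, and the peak was absent from the list of Sphk2 KO replicate 1. Hoxb1, Hoxb2, Hoxb5, Hoxb6, Hoxb7, Hoxb8, Hoxb9 and Hoxb13 had no peak within 2 kb in any library.

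Hoxc6 was the one Hox gene called in both libraries of one genotype and in neither of the other. The region at 102999103 to 102999520 on chromosome 15, 877 bp inside the gene, had −log10 q of 10.3 (replicate 1) and 4.48 (replicate 2), widths of 210 and 385 bp, fold enrichments of 5.34 and 3.40 and summits 4 bp apart. Regions of this kind (WT-only) thus made 1 of 13 (7.69%) at Hox genes and 5.43% of all regions. Regions in both Sphk2 KO libraries and neither WT library made 0 of 13, against 0.605% of all regions. Hoxc4, Hoxc5, Hoxc8, Hoxc9, Hoxc10, Hoxc11, Hoxc12 and Hoxc13 had no peak.

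The Hoxd cluster held a single weak peak. It lay at 74715853 to 74716119 on chromosome 2, inside Hoxd3 and the antisense lncRNA gene Hoxd3os1, and was called in WT replicate 2 alone (−log10 q 2.90, fold enrichment 3.14, 267 bp). Hoxd1, Hoxd4, Hoxd8, Hoxd9, Hoxd10, Hoxd11, Hoxd12 and Hoxd13, which include the genes that pattern limbs and digits, had no peak in any library.

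The clusters also hold 6 microRNA genes, and none of the 6 overlapped a peak. These short genes were read without the 2 kb extension used for Hox genes. No share over all microRNA genes is given for comparison, so the count is a description only. They belong mainly to the miR-10 and miR-196 families, which are known to act on Hox mRNAs, and their mature sequences group by seed (bases 2 to 8, in capitals) across clusters.

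mmu-miR-10a-5p: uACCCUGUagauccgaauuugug
mmu-miR-10b-5p: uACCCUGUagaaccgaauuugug
mmu-miR-196a-5p: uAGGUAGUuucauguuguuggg
mmu-miR-196b-5p: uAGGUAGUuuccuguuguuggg

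Mir10a, inside the Hoxb3 model, was the microRNA gene closest to a peak, and its miR-10a-5p site at chr11:96317186-96317208 lay at 1119, 5066, 1374 and 1369 bp, with the Hoxb4 region the nearest except in WT replicate 2. The miR-10b-5p site, inside Hoxd4 and with the same seed, was at least 9955 bp from a peak. The miR-196b-5p site, between Hoxa9 and Hoxa10, was 8256, 8220, 217145 and 8107 bp from the nearest peak, and the Mir196a-1, Mir196a-2 and Mir615 genes were at least 15406 bp from any peak. Of 25 lncRNA genes within or across the clusters, 6 overlapped a peak, among them Hoxaas3, Hoxa11os, Hoxd3os1 and LOC115490409. They too were read without extension, and no share over all lncRNA genes is given for comparison. Hotair, in the Hoxc cluster, did not.

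Hox peaks mostly stood low in the lists by −log10 q. Of the 24 Hox peaks of all libraries, 7 ranked in the upper 50% of their own list, and per library these were 4 of 8, 2 of 10, 0 of 1 and 1 of 5. The best rank was 39.7%, 36.5%, 81.7% and 49.8% of the way down the list. Their summits held 14 to 46 fragments and their widths ran from 182 to 1231 bp. Of these peaks 4, 2, 0 and 1 were wider than the median peak of their library (486, 560, 584 and 626 bp). By fold enrichment 6, 3, 0 and 1 exceeded the library median (5.19, 5.11, 6.03 and 6.01), so most in WT replicate 1 were above it. The median Hox gene with a peak had its best peak at 49.5%, 63.5%, 81.7% and 75.3% of the list, against 21.2%, 21.5%, 27.3% and 23.4% for all protein-coding genes with a peak.

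**Figure D3:**
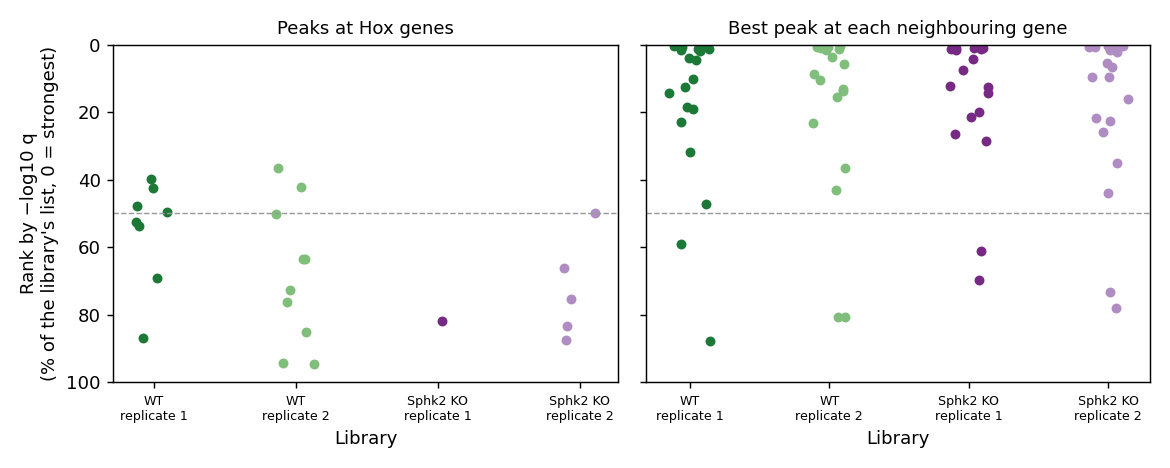
Rank of each Hox peak (left, 24 peaks) and of the best peak at each neighbouring gene (right) within its library's list, in percent with 0 the strongest; the dashed line marks 50%. Each point is a peak on the left and the best peak of a gene on the right, where the peak shared by Cbx5 and Hnrnpa1 is drawn for each. All Hox peaks are thus set beside only the best peak of each neighbour. On the left 7 Hox peaks lie on the stronger side of the line, and most neighbours lie near the top.

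Hox genes with a peak were more numerous in each WT library than in each Sphk2 KO library, but the design could not separate this from the spread between libraries. The mean was 7.5 ± 0.707 genes in WT and 3.5 ± 2.12 in Sphk2 KO (SD, n = 2 each), a difference of 4 genes with p = 0.333 in a two-sided exact permutation test, the smallest p that 2 libraries against 2 allow. Hox peaks covered 4267, 4754, 370 and 2340 bp, or 4510.5 ± 344 against 1355 ± 1393 bp (SD, n = 2 each, exact permutation p = 0.333), at a median width of 399.5, 386, 370 and 436 bp per peak. Sphk2 KO replicate 1 had the lowest value in each case. It alone lacked a peak at 4 of the 13 regions (30.8%), among them those at Hoxa3, Hoxa9 and Hoxb3. This pattern was seen in 7.19% of all regions. The shares were not matched for peak strength, and 37.5% of all regions but 0 Hox regions were called in all 4 libraries. Without Sphk2 KO replicate 1 the difference was 2.5 genes.

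Depth moved with these counts. Retained fragments numbered 33859480, 34443062, 25877428 and 27686223 and the lists held 31507, 31843, 20759 and 27446 peaks, so the libraries stood in the same order by fragments, by peaks and by Hox genes. The part of depth in the Hox counts was not tested beyond the next values. With the 20759 strongest peaks of every library, Hox genes with a peak numbered 7, 6, 2 and 3, while a minimum −log10 q of 5 left 7, 6, 0 and 3. A gene without a called peak may be accessible below the threshold, and fewer open cells and less open DNA per cell cannot be told apart in bulk libraries.

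Markers of other cell types were read in the same way, beside the 58.0%, 59.0%, 50.5% and 56.4% of all protein-coding genes with a peak. Granulocyte markers had peaks at 10, 11, 9 and 10 of 12 genes, with Csf3r and Itgam (the gene of CD11b) called in all 4 libraries. Ly6g, part of the Gr1 epitope, was called in WT replicate 2 alone (−log10 q 1.99). Ngp was called in none, and Camp was called weakly in both WT libraries (2.98 and 1.81) and in Sphk2 KO replicate 2 (2.78). Stem and progenitor markers had peaks at 5, 6, 1 and 5 of 10 genes (50%, 60%, 10% and 50%), not above the share of all genes except slightly in WT replicate 2. Kit was called in 3 libraries and Gata2 and Mycn were among the 3 called in none. The 1 progenitor marker called in all 4 libraries was Meis1, which is also in the TALE cofactor list below. Monocyte markers had them at 9, 9, 5 and 7 of 10 genes, T cell markers, which EL4 cells may share, at 6, 8, 3 and 5 of 12, and B cell markers, Cd79a alone, at 1, 1, 1 and 0 of 8. The best peak within 2 kb of Cd79a differed strongly in −log10 q between replicates. It had −log10 q of 5.61 (WT replicate 1), 144 (WT replicate 2) and 98.7 (Sphk2 KO replicate 1), with none in Sphk2 KO replicate 2. The positions of these peaks were not compared. Whether they are the same site, or lie across the edge of the 2 kb window, was not tested. Of the monocyte list Cd14, Csf1r, Cx3cr1, F13a1 and Klf4 were called in all 4 libraries, and Ccr2 in none. Fn1 and Irf8 of that list and Zap70 of the T cell list were called in both WT libraries and neither Sphk2 KO library. The share of all protein-coding genes with this pattern is not given here, and of all merged regions 5.43% had it. Of the T cell list Cd3d (−log10 q 124, 144, 104 and 198), Cd5 (24.2, 30.0, 24.0 and 37.5) and Lck (17.3, 18.4, 3.02 and 26.6) were called in all 4 libraries, and Cd3e, Cd3g and Cd2 in none. The granulocyte, progenitor, monocyte and T cell counts and the share of all protein-coding genes with a peak were each lowest in Sphk2 KO replicate 1, as were the Hox counts. The part of these cell types in the Hox result was not tested.

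Most genes taken as neighbours of the clusters had a peak, though some lay far away. Of the 3 nearest protein-coding genes on either side of each cluster (24 genes), 21 (87.5%) had a peak in any library and 18 (75.0%) in all 4. For all protein-coding genes these shares were 62.5% and 49.4%. The 24 genes lay 6.71 to 894 kb from a cluster. Of the nearest gene on each side, Skap2, Calcoco1 and Smug1 were called in all 4 libraries. Evx1 and Ttll6 had no peak, and Evx2, Skap1 and Mtx2 were not called in every library. Skap2, an adaptor of integrin signalling that lies 142.8 kb from the Hoxa cluster, had best peaks with −log10 q of 192, 199, 134 and 277. Cbx5 and Hnrnpa1, which encode heterochromatin protein 1 alpha and an RNA-binding protein and lie 154.7 and 203.1 kb from Hoxc, adjoin each other and had the same best peak, with 173, 217, 141 and 275. It is 1 accessible site counted for both genes. The 3 neighbours without a peak were Evx1, a homeobox gene 52.6 kb from Hoxa, Ttll6, 28.1 kb from Hoxb, and Calcoco2, 69.8 kb from Hoxb. Evx2, 6.71 kb from Hoxd, had weak peaks in WT replicate 2 (3.49) and Sphk2 KO replicate 2 (5.07), and Skap1, 96.3 kb from Hoxb, had one in WT replicate 1 (7.90). Mtx2, 60.7 kb from Hoxd, had weak peaks in both WT libraries (2.38 and 3.49) and in Sphk2 KO replicate 2 (6.52).

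MLL and Polycomb genes, which regulate Hox genes, mostly carried peaks, against 58.0%, 59.0%, 50.5% and 56.4% of all protein-coding genes. All 17 MLL complex and related activator genes had a peak in both WT libraries, as they did in Sphk2 KO replicate 2, and 15 had one in Sphk2 KO replicate 1. Aff1, Aff4, Dot1l and Dpy30 were among those called in all 4, with Dot1l, the histone H3 lysine 79 methyltransferase gene, at −log10 q of 78.3, 98.2, 42.4 and 99.8. Of 19 Polycomb genes 19, 19, 17 and 18 had a peak. Bmi1, Cbx7 and Cbx8 were among those called in all 4, and Cbx8, a chromobox reader of Polycomb marks, had 130, 145, 109 and 171. Cbx2, of the same chromobox family, was called in both WT libraries (6.38 and 5.42) and in neither Sphk2 KO library. Of all merged regions 5.43% had this pattern, but that is a share of single regions and not of genes.

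TALE cofactor genes had peaks at 7, 8, 5 and 7 of 9 genes (77.8%, 88.9%, 55.6% and 77.8%). Of all protein-coding genes 58.0%, 59.0%, 50.5% and 56.4% had one, so in Sphk2 KO replicate 1 the TALE share was near that of all genes. Meis1, the partner of Hoxa9, was called in all 4 libraries with −log10 q of 12.9, 12.3, 10.8 and 23.8, as were Pbx3 and Pbx4 (45.3, 28.8, 27.7 and 35.8 for Pbx4). Meis2 had none, and Pknox1 had 220, 216, 174 and 321, the highest of the group. Among upstream regulators 6, 6, 5 and 6 of 10 genes had a peak, near the above shares of all protein-coding genes, and 4 had none in any library. Ctcf, whose product forms boundaries inside Hox clusters, Rad21, Rara and Hic1 were called in all 4, and the caudal genes Cdx1, Cdx2 and Cdx4 were called in none.

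Other homeobox genes of development are given for comparison. Of 45 such genes 5, 8, 2 and 6 had a peak per library (11.1%, 17.8%, 4.44% and 13.3%), and 34 had none in any library. For all protein-coding genes the shares with a peak were 58.0%, 59.0%, 50.5% and 56.4%. Irx5 (−log10 q 56.9, 55.8, 16.8 and 38.3) and Lhx1 (20.6, 13.5, 7.65 and 11.3) were called in all 4 libraries, so 2 of these 45 genes and 1 of the 39 Hox genes, Hoxb3, had a peak in every library. These are counts of called peaks beside those of all genes, and no test of the lists was made.

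**Figure D4:**
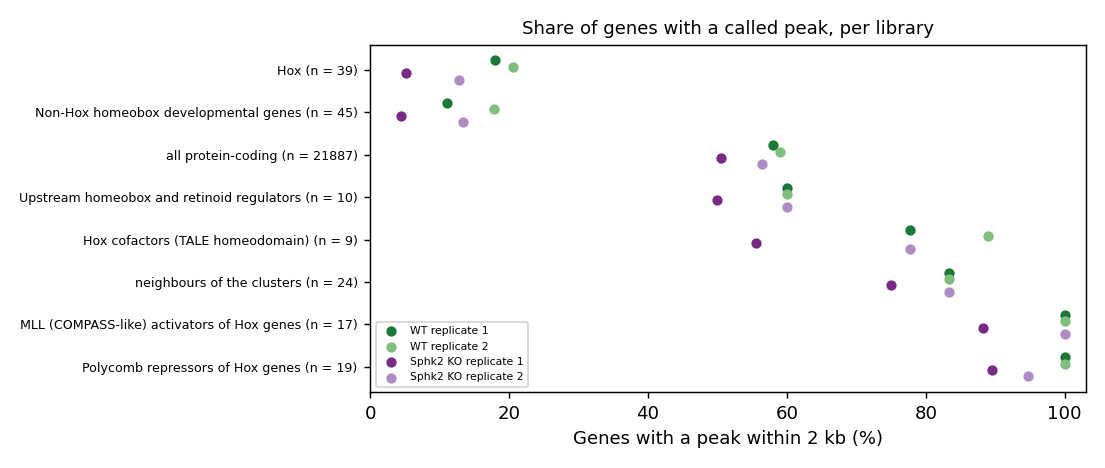
Percent of genes with a peak within 2 kb (horizontal axis) in each of the 4 libraries (points) for the Hox genes, related gene lists and all protein-coding genes. The Hox genes lie between 5.13% and 20.5%, beside other developmental homeobox genes and below all protein-coding genes, which lie between 50.5% and 59.0%.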

How the data were processed

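ATAC-seq peak lists of 4 libraries were used as the authors deposited them. The submitters' processing notes list Cutadapt, BWA and MACS2, with mm10 as the build. Per the file headers, MACS 2.1.1.20160309 called peaks per library on paired-end fragments without a control, at q 0.05, with 1 fragment kept per position and a 10 kb background. The deposited columns are the pileup (a coverage signal, unscaled), the −log10 of each p-value and q-value, the fold enrichment (a ratio to local background, per the file headers) and the peak width. No counts per region were used, so comparisons rest on called peaks.

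Peaks sharing at least 1 bp were merged across libraries (Python 3.11.15, pandas 2.3.3), and genes, promoters and microRNAs came from RefSeq tables for GRCm38.p6. The gene table gives no strand, so strands came from the promoter table (9 of 11 Hoxa, 3 of 10 Hoxb, 1 of 9 Hoxc and 9 of 9 Hoxd genes, 1 strand per cluster). Overlap calls were tested on simulated data. Numbers per library were compared by exact permutation tests. Regions are given in full, except that a few regions and genes are not reported here: the grid and the maps omit them, while all counts include them. Neighbours were the 3 nearest genes per side, and list genes were named alphabetically among those called in all 4 libraries, plus any private to a genotype. Pknox1, Meis2, the Cdx genes, the single markers named for their calls, the Hoxa3, Hoxb4 and Hoxa11 windows, the 10 kb limit and the CpG-rich class were chosen after values were seen. The members and lists were chosen with earlier results of these data known.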

Additional observations from a re-analysis of the deposited data

How the results depend on the processing

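No alternative reversed the sign of the difference in Hox genes or in covered bases between the genotypes. Leaving out 1 library or blocking by replicate could not reverse it, because each WT library exceeded each Sphk2 KO library in both quantities. The WT excess of 4 genes was 3 without the 2 kb extension, 6.5 with 5 kb, 5 with a −log10 q of at least 5 and 4 with lists of equal length, and ranged from 2.5 to 5.5 when any 1 library was left out; the excess of 3155.5 bp ranged from 2170.5 to 4140.5 bp. Exact permutation p was never under 0.333, so no design here could pass a threshold. The 13 Hox regions became 8 with lists of equal length and 8 to 13 with 1 library left out, the 8 being the value without WT replicate 2. Regions private to WT numbered 1 to 6 (6 without WT replicate 1, 3 without WT replicate 2, 5 without Sphk2 KO replicate 2) and those private to Sphk2 KO 0 to 1 (1 without WT replicate 1), since 1 library then stands for its group. Hox genes with a peak in any library, 10, numbered 8 without the extension, 15 with 5 kb, and 7 to 10 with 1 library left out, a result added after the data were seen. Samples share replicate numbers but are not shown to be paired: deviations of replicate 1 from the group mean correlated at 0.0332 across 45299 regions, and the replicate block gave the same difference of 4 genes with an exact p of 0.5. Retained fragments were fewer in both Sphk2 KO libraries, and the part of depth in the calls was not tested.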
